A study of Mus musculus with 32 samples.

Results

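The genes of the MHC class II antigen presentation pathway were examined across mouse strains: the A chain genes H2-Aa and H2-Ab1, the E chain genes H2-Eb1, H2-Eb2 and H2-Ea-ps, the peptide exchange genes H2-DMa, H2-DMb1 and H2-DMb2, the DM inhibitor chain H2-Ob, and Cd74, the invariant chain. They were chosen by gene name. They are 10 of the 49671 genes in the deposited tables, and all 10 passed the filter on low counts that left 18382 genes for testing. H2-Ea-ps passed it through its SWR libraries alone. The libraries were made from the vomeronasal organ (VNO) epithelium, a pheromone-sensing tissue of the nose, of 32 individual mice, 1 library per mouse. The mice were 42 days old and belonged to the inbred strains C57/BL6 (B6), 129S6/SVEV (129), SJL/J (SJL) and SWR/J (SWR), with 4 females and 4 males of each, so that a strain is represented by 8 mice and a sex by 16. The labels name no transgene and no treatment.

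MHC class II molecules are pairs of an alpha and a beta chain that hold peptides from engulfed proteins on the surface of dendritic cells, macrophages and B lymphocytes, where CD4 T lymphocytes read them. The pairs are assembled in the endoplasmic reticulum on the invariant chain Cd74, cathepsins then digest Cd74, and the DM molecule exchanges its last fragment for peptides while the O molecule holds DM in check. Transcription of most of these genes depends largely on the co-activator Ciita, which is recruited by RFX proteins at an X box and by NF-Y at a Y box in the promoter. B6 and 129 mice are known to carry the b haplotype of the H2 locus, SJL mice the s haplotype and SWR mice the q haplotype. The labels and the study's methods name different substrains of 129, and the haplotype of these mice was not tested. In the b and s haplotypes a deletion takes away the promoter of the E alpha gene, while the q haplotype is known for E alpha transcripts that yield no protein.

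In the GRCm38 (mm10) annotation, 9 of the 10 genes lie in one stretch of 225105 bp at chr17:34119541-34344645. From low to high coordinates these are H2-DMa (34119541 to 34139101, forward strand), H2-DMb2 (34143307 to 34151555, forward), H2-DMb1 (34153072 to 34160230, forward), H2-Ob (34238903 to 34254414, forward), H2-Ab1 (34257689 to 34269419, forward), H2-Aa (34282744 to 34287823, reverse), H2-Eb1 (34305867 to 34316674, forward), H2-Eb2 (34325665 to 34341412, forward) and H2-Ea-ps (34341959 to 34344645, reverse). Cd74 lies on another chromosome. The annotation calls H2-Ea-ps a polymorphic pseudogene, and the other 9 are protein coding.

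Promoter windows from RefSeq (GRCm38.p6, 250 bases before to 50 bases after a start site) were found on chromosome 17 for 7 of these genes, as 8 windows. The stretches are shown because they hold the letters through which the genes are known to be switched on together. Capitals mark the X box core AACNNATG and the Y box core TGATTGG, which do not overlap each other. Both were searched in these windows on the strand of the gene, and each line reads 5′ to 3′ on the strand of its gene in the reference strain B6:
H2-Aa chr17:34287857-34287926, reverse strand: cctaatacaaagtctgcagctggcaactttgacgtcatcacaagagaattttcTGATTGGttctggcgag
H2-Eb1 chr17:34305763-34305822, forward strand: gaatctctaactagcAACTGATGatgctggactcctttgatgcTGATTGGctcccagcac
H2-Eb2 chr17:34325530-34325589, forward strand: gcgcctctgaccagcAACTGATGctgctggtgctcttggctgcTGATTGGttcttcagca
H2-DMb2 chr17:34145113-34145173, forward strand: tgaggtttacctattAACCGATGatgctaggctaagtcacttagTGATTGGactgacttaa
H2-Ob chr17:34238805-34238862, forward strand: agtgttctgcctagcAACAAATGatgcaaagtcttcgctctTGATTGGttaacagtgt

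The X core followed by the Y core within 40 bases on one strand occurred in the windows of 5 members, H2-Eb1, H2-Eb2, H2-DMb1, H2-DMb2 and H2-Ob, and in 19 of 32851 RefSeq promoters in all (0.0578%). Alone, and on either strand, the X core occurred in 8.86% of the promoters and the Y core in 7.82%. The number of bases between the cores was 20 in H2-Eb1 and H2-Eb2, 21 in H2-DMb1 and H2-DMb2, and 18 in H2-Ob. The Y core began 50 bases upstream of the start site in H2-Aa, 59 in H2-Ob, 61 in H2-Eb1, 63 in H2-DMb1, 92 in H2-DMb2 and 102 in H2-Eb2. On the strand of the gene, the window of H2-Aa held the Y core without these X letters, and neither of the 2 windows of H2-DMa held the letters of either core. The opposite strand of these windows was not described. These matches describe the letters of one reference genome, and their variants in 129, SJL and SWR were not analysed here.

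Read pairs counted on genes ranged from 5106398 to 18640871 per library, with a median of 11461344. The tissue carried its own markers in every strain, with mean normalized counts between 16606 and 19534 for Omp, the marker protein of mature olfactory and vomeronasal neurons. The level of gene families of other tissues, taken as a background of each library, had strain medians between 0.954 and 8.26 rpm and was lowest in 129. B6 female replicate 1 and 129 male replicate 1 stood apart in an earlier principal component analysis, which is not reported here. The number of calls below was 27 with and 27 without this pair of libraries. Reads of all strains were placed on the B6 reference genome, and the effect of sequence variants on the levels was not tested. In these bulk samples, fewer cells of a type and less RNA per cell cannot be told apart.

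Class II RNA differed between the strains in amount and in makeup. The deposited normalized counts, summed over the 10 genes, had strain medians of 7571 in 129, 11328 in SJL, 15000 in B6 and 16395 in SWR. B6 and SWR overlapped, whereas all 8 libraries of 129, between 6758 and 8072, lay below the lowest library of any other strain. H2-Aa and H2-Ab1 followed this order, but H2-Eb1 was 9.08-fold lower in SWR than in B6, H2-Ea-ps RNA was found at a level above a few reads in SWR alone, and the paralogs H2-DMb1 and H2-DMb2 ranked the strains differently.

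**Figure D1:**
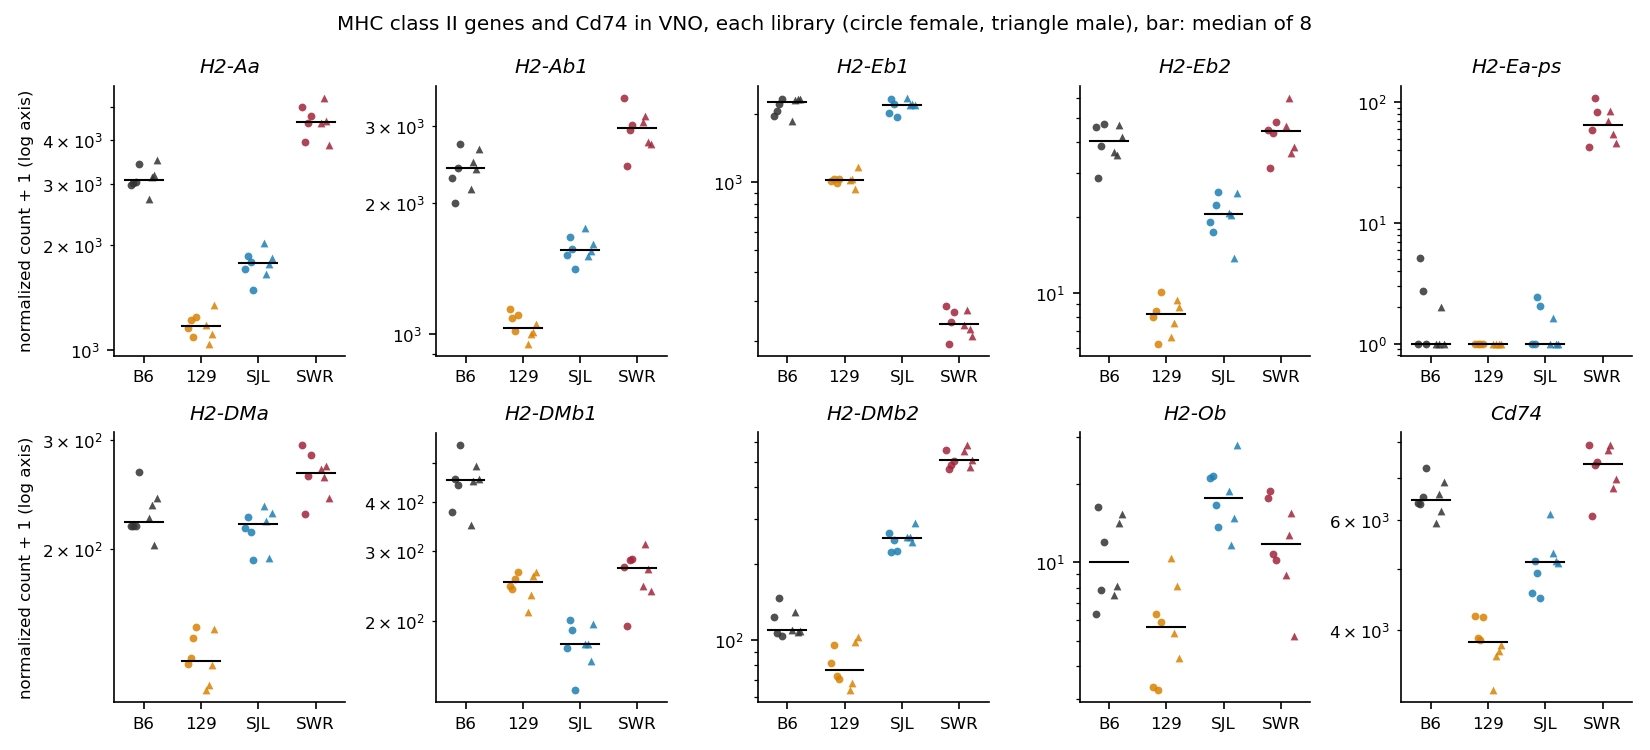
Normalized count + 1 of each gene (log axis) in every library, by strain, with circles for females, triangles for males and a bar at the median of 8. The 8 libraries of SWR lie highest for H2-Aa, lowest for H2-Eb1 and alone above the few-read level for H2-Ea-ps.

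A gene was called differentially expressed (DE) between a pair of strains at a fold change (FC) above 2, that is a log2 fold change (LFC) beyond 1 in either direction, with an FDR under 0.05 in the edgeR quasi-likelihood test. Of the 10 genes, 8 were called in at least 1 of the 6 pairs, where 19.8% of all tested genes were. The exceptions were H2-DMa and Cd74. Between 129 and B6, 5 genes were called against 11.1% of all genes, all 5 lower in 129 (8.72% of all genes were called higher in B6 and 2.4% higher in 129). One of them was H2-Ea-ps, which never exceeded the floor of 3 reads in a library of either strain. Without it, 26 of the 27 calls in 60 combinations of a gene and a pair stand. The medians, the counts at an FDR alone and the totals of 27 calls below still include it. The calls of H2-Ea-ps in SWR, among these 26, concern a gene that passed the filter through SWR alone.

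Between SJL and B6, 3 genes were called against 7.99% of all genes. These were H2-DMb2, higher in SJL (2.67%), and H2-Eb2 and H2-DMb1, higher in B6 (5.33%). Between SWR and B6, 3 were called against 8.05%. H2-Ea-ps and H2-DMb2 were higher in SWR (2.52%) and H2-Eb1 was higher in B6 (5.53%). Between SJL and 129, 4 were called against 8.38%, all higher in SJL (5.61% of all genes, against 2.76% higher in 129). Between SWR and 129, 7 were called against 7.73%, 6 of them higher in SWR (4.62%) and H2-Eb1 higher in 129 (3.11%). Between SWR and SJL, 5 were called against 4.5%, 4 of them higher in SWR (2.19%) and H2-Eb1 higher in SJL (2.31%).

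The median LFC over the 10 genes was −1.03 for 129 minus B6, −0.48 for SJL minus B6, 0.20 for SWR minus B6, 0.88 for SJL minus 129, 1.33 for SWR minus 129 and 0.74 for SWR minus SJL. Over all tested genes it was −0.02 or −0.01 in each pair. The medians over the 10 genes include H2-Ea-ps, also in the pairs without SWR, where both strains were at the floor. With an FDR under 0.05 alone, 10 genes passed between 129 and B6, H2-Ea-ps at its floor among them, where 52.8% of all genes did. The same limit passed 7 genes between SJL and B6 (45.7%), 7 between SWR and B6 (40.9%), 9 between SJL and 129 (38.3%), 9 between SWR and 129 (41.8%) and 9 between SWR and SJL (32.5%). In each pair with SWR this number includes H2-Ea-ps, which passed the filter on low counts through SWR alone.

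Complete separation of the 8 libraries of one strain from the 8 of another was seen for 8 genes between B6 and 129 (14.4% of all tested genes), for 5 between B6 and SJL (13.1%) and for 5 between B6 and SWR (12.5%). It was seen for 9 genes between 129 and SJL (11.9%), 8 between 129 and SWR (13.5%) and 6 between SJL and SWR (10.2%). In each pair with SWR this count includes H2-Ea-ps. That gene passed the filter through SWR alone, so its separation is no separate support. The pairs share their libraries, so that their counts are not independent of each other.

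**Figure D2:**
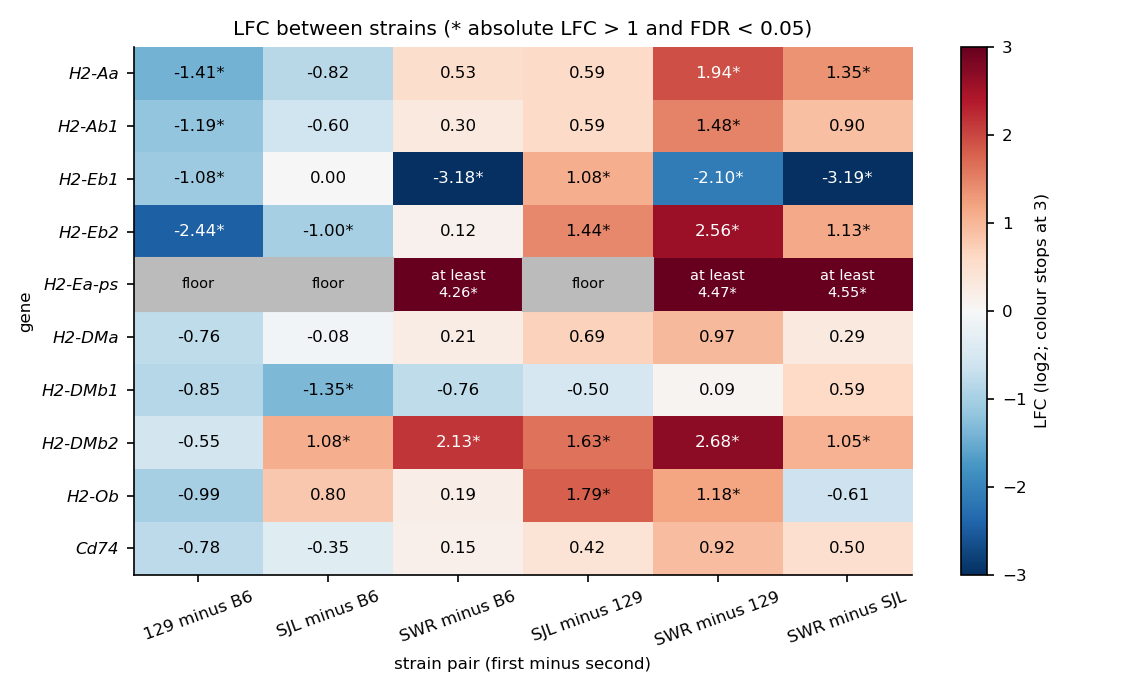
LFC of each gene (rows) in each pair of strains (columns, first minus second), in colour on a log2 scale that stops at 3, with an asterisk at each call. H2-Eb1 is blue and H2-DMb2 red in the 3 columns that set SWR against another strain, and gray cells mark H2-Ea-ps where both strains were at the floor of 3 reads.

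H2-Aa encodes the alpha chain and H2-Ab1 the beta chain of the A molecule. H2-Aa RNA separated the strains completely. Its normalized count (lowest, median and highest of 8 mice) was 1045, 1172 and 1347 in 129 and 1490, 1780 and 2035 in SJL. In B6 it was 2711, 3086 and 3511, and in SWR 3870, 4524 and 5283. No library of one strain overlapped with another strain, in the order 129, SJL, B6 and SWR. The largest difference was that between SWR and 129, where H2-Aa was 3.84-fold higher in SWR (LFC 1.94 ± 0.066 SE, FDR = 6.68e-23). H2-Aa was also 2.65-fold lower in 129 than in B6 (LFC −1.41 ± 0.065, FDR = 5.71e-19) and higher in SWR than in SJL (LFC 1.35 ± 0.064, FDR = 2.5e-18). The LFC between SWR and B6 was 0.53 ± 0.063 (FDR = 1.92e-08), below the limit for a call.

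H2-Ab1 kept the order of its partner with smaller steps. Its normalized count was 951, 1035 and 1142 in 129, 1414, 1560 and 1754 in SJL, 1996, 2398 and 2727 in B6, and 2433, 2972 and 3472 in SWR. B6 and SWR overlapped, and the other pairs of strains did not. H2-Ab1 was called in 2 pairs, 2.28-fold lower in 129 than in B6 (LFC −1.19 ± 0.063, FDR = 3.21e-17) and higher in SWR than in 129 (LFC 1.48 ± 0.063, FDR = 6.2e-20). Between SWR and SJL the LFC of H2-Ab1 was 0.90 ± 0.062 (FDR = 8.79e-14).

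H2-Eb1 encodes the beta chain of the E molecule. Its normalized count was 193, 237 and 282 in SWR, 934, 1022 and 1171 in 129, 1934, 2200 and 2344 in SJL, and 1856, 2258 and 2335 in B6. SWR lay below every library of the other strains and 129 lay between, while SJL and B6 overlapped. H2-Eb1 was 9.08-fold lower in SWR than in B6 (LFC −3.18 ± 0.068, FDR = 7.73e-29). It was 9.1-fold lower in SWR than in SJL (LFC −3.19 ± 0.068, FDR = 1.42e-28), and 4.3-fold lower in SWR than in 129 (LFC −2.10 ± 0.067, FDR = 1.04e-23), the strain with the lowest class II sum. H2-Eb1 was 2.11-fold lower in 129 than in B6 (LFC −1.08 ± 0.061, FDR = 1.93e-16) and higher in SJL than in 129 (LFC 1.08 ± 0.061, FDR = 1.98e-16), and between SJL and B6 the LFC was 0.0027 ± 0.060 (FDR = 0.976). With a marker level of antigen-presenting cells as a term in the fit, both LFC with 129 fell just under the limit (−0.97 for 129 minus B6 and 0.99 for SJL minus 129). The marker level of 129 overlapped with no other strain, so that this term cannot separate cell content from strain.

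H2-Eb2, a second E beta-like gene downstream of H2-Eb1, was expressed at a low level. Its normalized count was 5.25, 7.22 and 9.06 in 129, 12.8, 19.6 and 24.2 in SJL, 27.8, 39.3 and 46.1 in B6, and 30.4, 43.1 and 58.9 in SWR. Only B6 and SWR overlapped, and the LFC between them was 0.12 ± 0.14 (FDR = 0.503). Thus H2-Eb2 stood high in SWR, where its neighbour H2-Eb1 stood low. The gene was 5.42-fold lower in 129 than in B6 (LFC −2.44 ± 0.17, FDR = 4.28e-14) and 5.9-fold higher in SWR than in 129 (LFC 2.56 ± 0.17, FDR = 7.95e-15). It was higher in SJL than in 129 (LFC 1.44 ± 0.18, FDR = 3.94e-08) and in SWR than in SJL (LFC 1.13 ± 0.14, FDR = 1.31e-07). The call between SJL and B6 (LFC −1.003 ± 0.15, FDR = 9.86e-07) sat at the limit and was lost without the filter on low counts (−0.98), without the pair of libraries named above (−0.97) and in limma (−0.97).

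H2-Ea-ps is the gene of the E alpha chain, the partner of H2-Eb1. Its reads were found in 8 of 8 SWR libraries, 606 in all, with a normalized count of 41.5, 63.7 and 107. In 129 it had 0 reads in the 8 libraries, in SJL 3 reads in all from 3 libraries, and in B6 6 reads in all from 3 libraries with no more than 3 in one. Against a floor of 3 reads per library, H2-Ea-ps was at least 19.1-fold higher in SWR than in B6 (FDR = 1.09e-12), at least 22.2-fold higher than in 129 (FDR = 1.26e-13) and at least 23.4-fold higher than in SJL (FDR = 3.96e-13). The gene passed the filter on low counts through its SWR libraries alone. These FDR values are therefore no separate support for its height in SWR. Every SWR library lay above every library of the other 3 strains. No fold is given among B6, 129 and SJL, which were all at or under the floor, where 3 reads were worth normalized counts of 3.53, 3.05 and 2.89. The strain with the lowest RNA of the E beta chain was the one with RNA of the E alpha gene.

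H2-DMa encodes the alpha chain of DM. Its normalized count was 117, 131 and 148 in 129, 191, 218 and 234 in SJL, 202, 220 and 265 in B6, and 227, 265 and 294 in SWR. All libraries of 129 lay below those of the other strains, which overlapped with one another. The LFC of H2-DMa was −0.76 ± 0.066 for 129 minus B6 (FDR = 1.05e-11) and 0.97 ± 0.065 for SWR minus 129 (FDR = 1.31e-14), and between SJL and B6 it was −0.08 ± 0.063 (FDR = 0.335). None reached the limit of a call. The gene shares 360 exon bases with Brd2 on the opposite strand, a matter for counting without strand, and the deposited counts used strand.

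H2-DMb1 and H2-DMb2 are neighbouring paralogs that both encode a beta chain of DM. The normalized count of H2-DMb1 was 347, 452 and 555 in B6, 193, 271 and 312 in SWR, 210, 249 and 265 in 129, and 133, 174 and 200 in SJL. That of H2-DMb2 was 103, 108 and 146 in B6, 62.7, 75.7 and 102 in 129, 221, 250 and 287 in SJL, and 469, 507 and 584 in SWR. The libraries of H2-DMb2 did not overlap between any strains, and B6 was the highest strain for H2-DMb1 and the second lowest for H2-DMb2.

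H2-DMb2 was 4.39-fold higher in SWR than in B6 (LFC 2.13 ± 0.084, FDR = 5.83e-21) and 6.42-fold higher in SWR than in 129 (LFC 2.68 ± 0.087, FDR = 1.99e-23). It was also higher in SJL than in 129 (LFC 1.63 ± 0.089, FDR = 6.51e-17), in SJL than in B6 (LFC 1.08 ± 0.086, FDR = 1.43e-12) and in SWR than in SJL (LFC 1.05 ± 0.078, FDR = 4.43e-13). Against B6, H2-DMb1 went the other way, with an LFC of −1.35 ± 0.090 in SJL (FDR = 1.2e-14) and −0.76 ± 0.087 in SWR (FDR = 6.91e-09). Between SWR and 129 the LFC of H2-DMb1 was 0.09 ± 0.088 (FDR = 0.448).

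Because the reference transcripts of this pair are 94.1% identical over 1219 aligned bases, reads of one can be placed on the other, and 7.34% of the stretches of read length in H2-DMb1 occur in H2-DMb2 as well. The values of each paralog are therefore uncertain, most of all in strains whose sequence differs from the reference. Their reads were added up in an alternative chosen after seeing the data. The sum had median normalized counts of 329 in 129, 427 in SJL, 570 in B6 and 779 in SWR, and its LFC was −0.41 ± 0.067 for SJL minus B6 (FDR = 6.37e-06) and 0.47 for SWR minus B6. The only pair called for the sum was SWR minus 129 (LFC 1.25 ± 0.068, FDR = 4.98e-17).

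H2-Ob encodes the beta chain of the O molecule, an inhibitor of DM found mostly in B lymphocytes. It gave few reads, with a normalized count of 2.25, 4.66 and 9.36 in 129, 5.33, 9.04 and 15.3 in B6, 4.23, 10.8 and 17.8 in SWR, and 10.6, 16.6 and 27.1 in SJL. Only 129 and SJL did not overlap. H2-Ob was higher in SJL than in 129 (LFC 1.79 ± 0.30, FDR = 1.07e-05) and higher in SWR than in 129 (LFC 1.18 ± 0.31, FDR = 0.00275). Both calls were lost with the marker level of antigen-presenting cells in the fit (LFC 0.36 and 0.52), and the second also with the library background in it (0.75). In pairs with 129 the marker term cannot separate cell content from strain. The LFC of 129 minus B6, −0.99 ± 0.33 (FDR = 0.0113), passed the limit in DESeq2 (−1.01) and without the pair of libraries named above (−1.31), and turned to 0.66 with the marker level in the fit.

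Cd74, the chaperone of all class II pairs, was the most abundant of the 10 genes by TPM, a level per exon length, and is the one member outside chromosome 17, on chromosome 18 (60803848 to 60812652, forward strand). Its normalized count was 3204, 3823 and 4205 in 129, 4507, 5141 and 6125 in SJL, 5927, 6457 and 7274 in B6, and 6083, 7377 and 7914 in SWR. All libraries of 129 lay below those of the other strains, while SJL overlapped with B6 and with SWR at their edges and B6 overlapped with SWR. Cd74 was 1.71-fold lower in 129 than in B6 (LFC −0.78 ± 0.062, FDR = 1.61e-12), and the LFC was 0.92 ± 0.062 for SWR minus 129 (FDR = 1.95e-14), 0.50 ± 0.062 for SWR minus SJL and 0.15 ± 0.061 for SWR minus B6 (FDR = 0.053). With the marker level of antigen-presenting cells in the fit, the first 2 passed the limit (−1.08 and 1.05) and the last changed sign (−0.03). In pairs with 129 or SWR this term cannot separate cell content from strain.

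Levels of different genes were compared per length, as counts per kb of merged exons. The size of such a ratio rests on the lengths used, which act alike in every strain, so that its order and its folds among strains are free of them. The ratio of H2-Aa to H2-Ab1 (lowest, median and highest) was 0.688, 0.752 and 0.865 in 129, 0.712, 0.767 and 0.784 in SJL, 0.849, 0.871 and 1.02 in B6, and 0.959, 1.04 and 1.13 in SWR. 129 overlapped with SJL and with B6, and B6 overlapped with SWR. With the longest transcript as length, an alternative chosen after seeing the data, every ratio of H2-Aa to H2-Ab1 was 1.8-fold lower, with medians of 0.418 in 129, 0.427 in SJL, 0.485 in B6 and 0.581 in SWR.

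The ratio of the E beta to the A beta chain, H2-Eb1 to H2-Ab1, was 1.13, 1.19 and 1.36 in B6 and 1.17, 1.27 and 1.47 in 129, which overlapped. It was 1.76, 1.82 and 1.91 in SJL and 0.1004, 0.107 and 0.116 in SWR, each apart from every other strain. With the longest transcript as length these medians were 1.82-fold lower, 0.0591 in SWR, 0.652 in B6, 0.696 in 129 and 1.001 in SJL, so that more E beta than A beta RNA in B6 and 129 was seen with merged exons alone. The proportion of the beta chain RNAs thus overlapped in B6 and 129, while the level of each differed more than 2-fold. The ratio of H2-DMb2 to H2-DMb1 was 0.180, 0.252 and 0.321 in B6, 0.253, 0.304 and 0.382 in 129, 1.06, 1.41 and 1.62 in SJL, and 1.64, 1.88 and 2.34 in SWR. In read terms, H2-DMb2 made up a median of 20.7% of the summed pair in B6 and 23.9% in 129, against 59.4% in SJL and 66.1% in SWR.

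**Figure D3:**
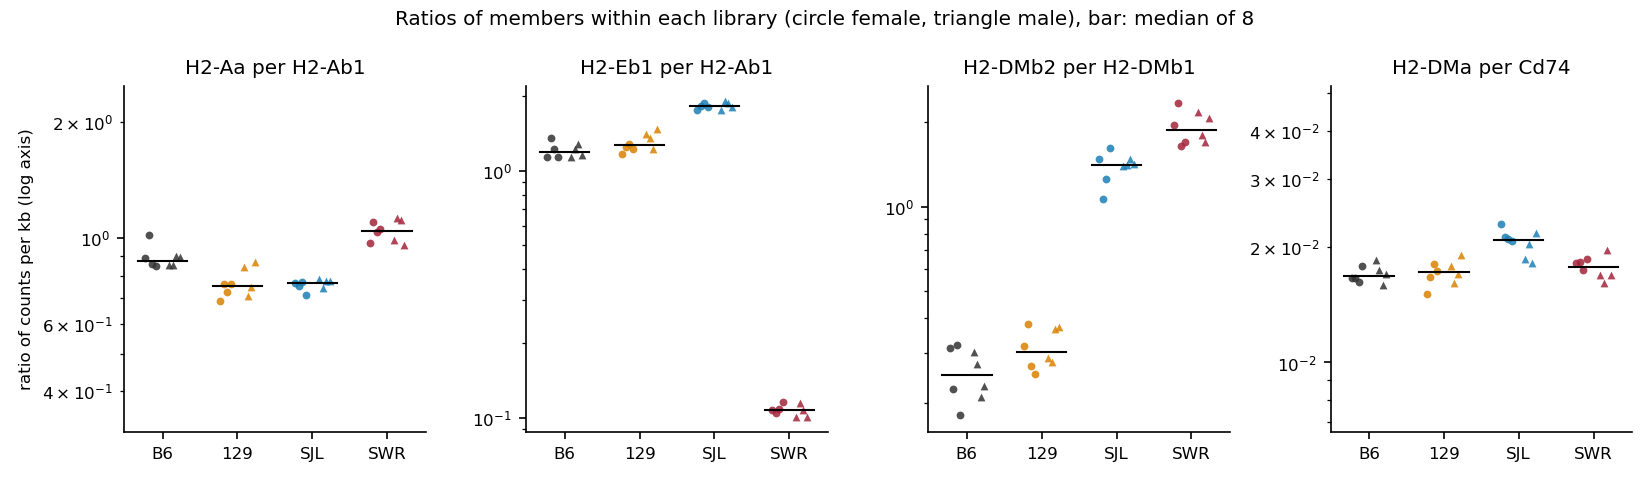
Ratios of counts per kb between pairs of the genes (log axis) in every library, by strain, with circles for females, triangles for males and a bar at the median of 8. The ratio of H2-Eb1 to H2-Ab1 sits between 0.1004 and 0.116 in SWR and from 1.13 upwards in the other strains (merged exons as length), and that of H2-DMb2 to H2-DMb1 is below 0.382 in B6 and 129 and above 1.06 in SJL and SWR.

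The ratio of H2-DMa to Cd74, as counts per kb, had medians of 0.0168 in B6, 0.0171 in 129, 0.0177 in SWR and 0.0208 in SJL. Relative to Cd74, H2-Ab1 had median ratios of 0.179 in 129, 0.205 in SJL, 0.243 in B6 and 0.262 in SWR, which were 1.78-fold higher with the longest transcript. H2-Eb1 had median ratios to Cd74 of 0.0286 in SWR, 0.225 in 129, 0.284 in B6 and 0.371 in SJL. The median ratio of H2-Eb2 to H2-Eb1 was 0.00417 in 129, 0.00521 in SJL, 0.0107 in B6 and 0.102 in SWR.

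As TPM, which scales counts by exon length and by the total of the library (here with merged exons as lengths), the 10 genes summed to medians of 679 in 129, 1129 in SJL, 1478 in B6 and 1499 in SWR. Cd74 supplied a median of 54.2% of this class II RNA in B6, 54.4% in SJL, 58.1% in SWR and 60.7% in 129. H2-Eb1 supplied a median of 15.5% in B6, 13.7% in 129 and 20.3% in SJL, but 1.66% in SWR. By mean TPM, Cd74 ranked 61st among 49326 genes in SWR, 65th in B6, 81st in SJL and 123rd in 129. H2-Eb1 ranked 308th in B6 and 4613th in SWR.

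No gene of the list was called between males and females (LFC above 1 and FDR under 0.01 in the additive edgeR model, which called 0.0381% of all genes). At an unadjusted p under 0.05, 0 of the 10 passed, where 8.97% of all genes did, and DESeq2 also called 0. The LFC of male minus female was −0.36 ± 0.31 for H2-Ea-ps (FDR = 0.809) and between −0.02 and 0.05 for the other 9. The interaction of sex and strain called 0 of the 10 by the edgeR F test at an FDR under 0.05 and 0 by DESeq2 (0.0163% of all genes in edgeR). At an unadjusted p under 0.05 it passed Cd74 alone, where 8.94% of all genes passed, with LFC of male minus female of −0.17 in 129, −0.05 in B6, 0.03 in SWR and 0.18 in SJL (FDR = 0.501 in edgeR).

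Ciita, the co-activator on which class II transcription depends, was low in 129, and no call separated the other strains. Its normalized count was 95.5, 127 and 145 in 129, 224, 288 and 326 in B6, 278, 309 and 369 in SJL, and 238, 287 and 329 in SWR. All libraries of 129 lay below those of the other strains, which overlapped. The LFC of Ciita was −1.13 ± 0.087 for 129 minus B6 (FDR = 7.8e-13), 1.31 ± 0.086 for SJL minus 129 (FDR = 1.18e-14) and 1.16 ± 0.086 for SWR minus 129 (FDR = 3.24e-13). Among B6, SJL and SWR it was between −0.16 and 0.19.

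Of 32 genes listed around class II presentation (transcription factors, lysosomal proteases, turnover and costimulation genes and the CD4 side), 29 were tested and 9 were called in at least 1 pair, where 19.8% of all genes were. Called lower in 129 than in B6 were 9 of the 29 and higher 0 (8.72% and 2.4% of all genes). In SJL against 129, 5 were called higher (5.61%), in SWR against 129 4 were (4.62%), and 0 were called between SWR and SJL. Against B6, Cd52, a leukocyte surface glycoprotein, was the only gene called in SJL, where it was lower. The median LFC over the 29 genes was −0.41 for 129 minus B6, −0.10 for SJL minus B6, −0.15 for SWR minus B6 and −0.10 for SWR minus SJL.

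Ctss, the cathepsin that digests Cd74 in antigen-presenting cells, had normalized counts of 116, 155 and 216 in 129, 298, 327 and 470 in SWR, 305, 335 and 350 in SJL, and 397, 474 and 632 in B6. It was lower in 129 than in B6 (LFC −1.55 ± 0.11, FDR = 3.67e-14), without overlap of 129 with another strain. Cd86, a costimulatory ligand, had an LFC of −1.79 ± 0.20 for 129 minus B6 (FDR = 3.95e-09), and Cd4, the co-receptor for class II, one of −1.996 ± 0.22 (FDR = 3.45e-09). Spi1, a transcription factor of myeloid cells and B lymphocytes, March1, a ligase that removes class II from the surface, Cd52 and Cd53, a leukocyte tetraspanin, were called lower in 129 than in B6 with LFC between −1.05 and −1.60. H2-Oa, the partner of H2-Ob, was not called in any pair, with median normalized counts between 4.16 in 129 and 9.55 in B6.

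Markers of the cells that carry class II moved with strain as well. The summed normalized count of 12 macrophage markers was 1009, 1072 and 1446 in 129, 1465, 1645 and 1947 in SWR, 2028, 2196 and 2599 in SJL, and 2045, 2574 and 2906 in B6. Against B6, 8 of the 12 were called lower in 129 (8.72% of all genes) and 2, Adgre1 and C1qb, lower in SWR (5.53%). Every SWR library lay below those of B6 and SJL in this sum, whereas for H2-Aa every SWR library lay above them. Lyz2, the lysozyme of myeloid cells, had mean normalized counts of 144 ± 42.6 (SD, n = 8) in 129, 297 ± 47.7 in SWR, 398 ± 55.1 in SJL and 426 ± 71.6 in B6, while Mertk, a receptor for engulfing dead cells, stood between 246 and 306 in the strains.

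Of 9 dendritic cell markers, 5 were tested, and between 129 and B6 1 was called higher and 3 lower (2.4% and 8.72% of all genes). The one higher in 129 was Batf3, a transcription factor of cross-presenting dendritic cells (LFC 2.42), and the others were Itgax, Flt3 and Cd209a. The sum of the list ranged from 696 to 868 in B6 and from 800 to 1061 in 129, and most of it was Zbtb46, with means of 646 to 780. Cd207, the Langerhans cell lectin, was too low to test, at 0 in 129 and with medians of no more than 1.24 in the others. Lymphocytes left few reads: 3 of 8 B lymphocyte markers were tested, with median sums of 12.9 in 129, 35.6 in SWR, 37.4 in SJL and 40.02 in B6, and Cd22 and Cd79b, both proteins of the B cell surface, had means of no more than 10.7. Of 6 T lymphocyte markers 1 was tested, Cd4, and Cd3g had means between 0.357 and 8.07. Ptprc (CD45), present on all leukocytes, had means of 132 ± 52.3 in 129, 182 ± 25.6 in SWR, 199 ± 34.3 in SJL and 253 ± 28.9 in B6, and Laptm5, a lysosomal protein of leukocytes, had means between 62.3 and 93.6.

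**Figure D4:**
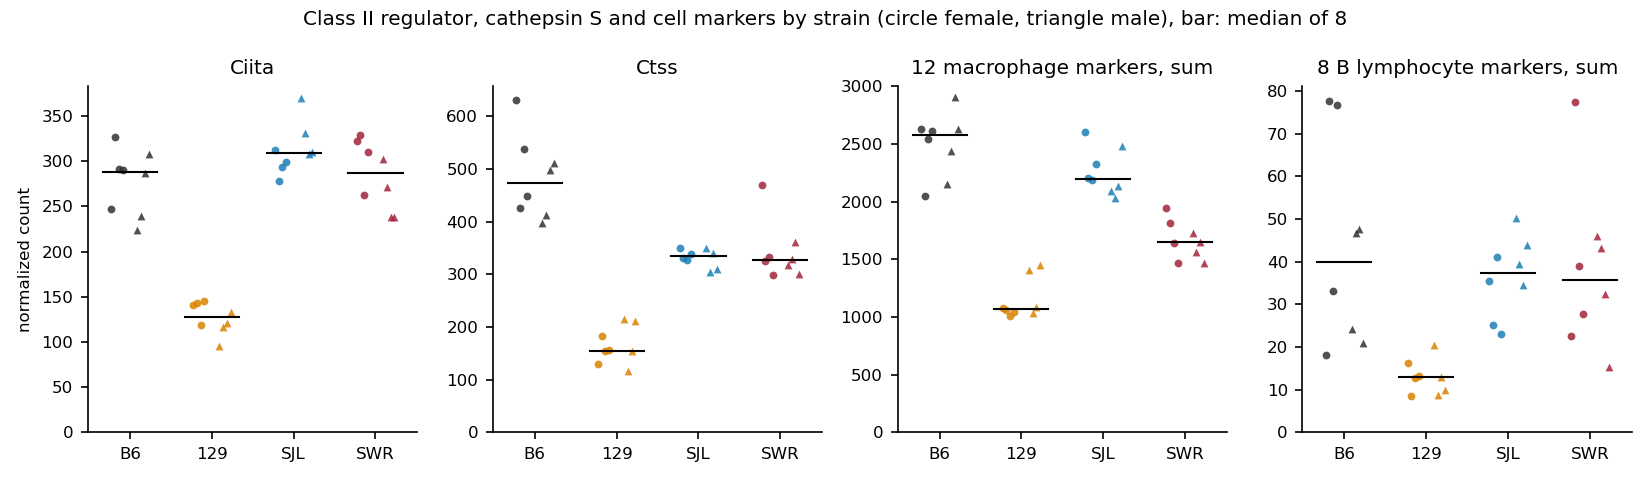
Normalized counts in every library, by strain, of the class II co-activator Ciita, the protease Ctss and the sums of 12 macrophage and 8 B lymphocyte markers, with circles for females, triangles for males and a bar at the median of 8. The libraries of 129 are lowest for Ciita and Ctss, and those of B6, SJL and SWR overlap for Ciita.

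Plasma cell and neutrophil markers were low, with Derl3 between 32.1 and 41.6 and Jchain between 6.01 and 7.35 as strain means, and S100a9 between 23.5 and 46.7 and S100a8 between 10.1 and 36.3. The epithelial genes Krt8 (5458 to 7040) and Epcam (5919 to 6944) and the neuronal G protein gene Gnai2 (6044 to 8753) were abundant in all 4 strains. The sum of 5 epithelial markers was 28202 to 33648 in SWR, above every library of B6 (19962 to 26330), 129 (18450 to 21227) and SJL (16248 to 20632). Of these markers, 1 was called higher in SWR than in B6 (2.52% of all genes), 129 (4.62%) and SJL (2.19%). In SJL, 1 was called lower than in B6 (5.33%) and in 129 (2.76%). The antigen-presenting cell marker level used as a term in the fit had medians of 177 CPM in 129, 213 in SWR, 276 in SJL and 297 in B6. Its libraries ranged from 161 to 196 in 129, 202 to 249 in SWR, 255 to 318 in SJL and 266 to 349 in B6. 129 and SWR thus overlapped with no other strain. In pairs with either, the term compares strains at a marker level they do not share, and cannot separate cell content from strain. With this term, the number of calls over the 60 combinations was 26 in place of 27, and H2-Eb1 and H2-DMb2 remained called in SWR against each other strain. The part of cell number in the levels was not tested.

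Within the class II stretch of chromosome 17, the tables list 8 genes besides the 9 above, of which 5 were tested. Tap1, Tap2, Psmb8 and Psmb9, which serve peptide supply to class I molecules, were not called in any pair. Tap1 had normalized counts of 159, 179 and 228 in 129 and 240, 261 and 301 in B6, an LFC of −0.52. Psmb9 had medians between 48.2 in 129 and 77.8 in SWR. The only gene called in at least 1 pair, where 19.8% of all genes were, was Gm20513, an antisense transcript that overlaps the H2-Eb1 locus, with normalized counts of 1.5, 2.84 and 11.6 in 129 and 4.26, 7.75 and 32.9 in B6 (LFC −1.31 ± 0.38, FDR = 0.00407). In SWR, where H2-Eb1 was lowest, Gm20513 had a median of 7.13, close to that of 7.63 in SJL.

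Across the 32 libraries, with each strain centred at 0 so that strain differences did not enter, log2(normalized count + 1) of H2-Ab1 was close to that of Cd74 (Pearson's r 0.826, rank 2 of 18381 genes). Genes outside the list with a high r were Nosip (0.761), Ppic (0.751), Rhoc (0.745) and G6pdx (0.741). The median over all genes was 0.0069 and the 95th percentile 0.439, and the points share library, depth and cell makeup. Among the class II genes, r with Cd74 was 0.686 for H2-DMa (rank 21), 0.649 for H2-Aa (rank 41), 0.635 for H2-Eb1 (rank 52), 0.610 for H2-DMb1 (rank 86), 0.371 for H2-Eb2 and 0.270 for H2-DMb2. It was −0.127 for H2-Ea-ps and −0.177 for H2-Ob. Within the 8 libraries of 129 alone, r was 0.194 for H2-Aa and 0.0528 for H2-Eb1, against 0.685 to 0.869 for both in the other strains. Without the 2 libraries farthest from the median of Cd74, an alternative chosen after seeing the data, r was 0.786 for H2-Ab1, 0.713 for Nosip, 0.681 for H2-Aa, 0.605 for H2-Eb1, 0.589 for H2-DMa, 0.473 for H2-DMb1, 0.207 for H2-Eb2 and 0.0946 for H2-DMb2, and that of H2-Ob changed sign to 0.0717.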

How the data were processed

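Total RNA depleted of ribosomal RNA was made into strand-specific libraries by the authors, who trimmed the 125 bp paired reads with Trim Galore and aligned them with STAR to GRCm38 (mm10). A deposited count is, per the authors, how many read pairs with a single genomic placement fell on the gene in its direction. For the deposited normalized signal, size factors from DESeq2 scaled these counts. Groups came from the labels, where the replicate number was read from the lane number. Libraries of a group differed beyond counting noise (chi-square per degree of freedom between 3.01 and 54.2 in 48 pairs).

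Strains, sex and their interaction were tested on counts with edgeR 4.0.16 (limma 3.58.1, R 4.3.3): TMM, filterByExpr over 8 groups, quasi-likelihood tests on all 18382 genes, and Benjamini-Hochberg adjustment over them (FDR). Standard errors are LFC over the square root of F. Ratios used 0.5 reads as pseudocount and TPM GENCODE M21 exons (49326 of 49671 identifiers found). Counts of 3 reads or fewer were a floor. All 10 genes are described, with genes of the pathway and region called in a pair, Ciita, the 2 highest genes of each marker list and the 5 genes most like Cd74; some of these are not reported here. Others named were chosen after their values were seen. Members and lists were chosen with earlier results of these data known. On simulated counts for SWR minus B6 (17998 genes), 94 of 100 genes changed 3-fold and 96 of 100 changed 6-fold were called, and 0 unchanged genes. Alternatives were DESeq2 1.42.0, limma, other scalings, filters, limits, covariates and left-out libraries.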

Additional observations from a re-analysis of the deposited data

Results flagged for a closer look

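In 74 groups of 4 mice (gene, strain and sex), the highest or lowest library lay apart from the other 3 by more than Dixon's 95% critical value in 6, where chance gives about 1 in 20, or 3.7. H2-Aa in B6 female replicate 4 had a normalized count of 3425 (others 2988 to 3037), and the same mouse had 265 for H2-DMa (others 216 to 217). H2-Eb1 had 1856 in B6 male replicate 1 (others 2300 to 2331) and 2344 in SJL male replicate 1 (others 2190 to 2201). H2-DMb1 had 193 in SWR female replicate 2 (others 272 to 285), and H2-DMb2 had 128 in B6 male replicate 2 (others 106 to 109).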

How the results depend on the processing

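The 27 calls became 27 with DESeq2, with its size factors in edgeR, with the library background as a term or without the pair of libraries that stood apart, 26 without the filter or with the marker term, 25 in limma, 26 to 28 with each library left out, 51 at an FDR alone and 18 with glmTreat. Replicate numbers did not pair the libraries (median correlation of deviations −0.013, over 0.1 in 22 of 112 same-number pairs), and the replicate block left the calls at 27. By pair, FDR alone gave 10 (129 and B6), 7 (SJL and B6), 7 (SWR and B6), 9 (SJL and 129) and 9 (SWR and SJL). glmTreat gave 3, 1, 2 and 3 for 129 and B6, SJL and B6, SJL and 129, and SWR and SJL, and the marker term 2 for SJL and 129. Of 2394 values of single genes under the alternatives, 2315 kept direction and side, 27 lost the call, 41 gained it and 11 changed sign. The last were H2-Eb1 between SJL and B6 (−0.015 without the 2 libraries, −0.0089 with the background, −0.028 to 0.028 with each library left out) and, with the marker term, H2-Ob for 129 minus B6 (0.66) and SWR minus SJL (0.16) and Cd74 for SWR minus B6 (−0.031). Adding the reads of H2-DMb1 and H2-DMb2 turned H2-DMb2 between SJL and B6 to −0.41. H2-Eb2 between SJL and B6 lost its call without SJL male replicate 3 (−0.93) or 2 (−0.9988), SJL female replicate 1 (−0.98) or 2 (−0.96), B6 male replicate 3 (−0.96) or 4 (−0.98), B6 female replicate 1 (−0.97) or 4 (−0.97), or SWR male or female replicate 4 (both −0.9954 to −0.9953). H2-Ob between 129 and B6 was called without B6 male replicate 1 (−1.06) or 2 (−1.05), B6 female replicate 1 (−1.08) or 3 (−1.06), 129 male replicate 1 (−1.20) or 3 (−1.07), or 129 female replicate 2 (−1.01). H2-DMa between SWR and 129 was called without SWR female replicate 2 (1.01) or 129 male replicate 4 (1.01). With the longest transcript as length, Cd74 supplied 49.2, 55.9, 50.1 and 51.9% of class II RNA in B6, 129, SJL and SWR, H2-Eb1 13.8, 12.4, 18.2 and 1.45%, and H2-Ab1, whose share moved most of these, 21.2, 17.8, 18.2 and 24.4%. The same length, for ratios an alternative chosen after seeing the data, moved the median ratios in B6, 129, SJL and SWR to 0.485, 0.418, 0.427 and 0.581 for H2-Aa to H2-Ab1, 0.652, 0.696, 1.001 and 0.0591 for H2-Eb1 to H2-Ab1, 0.432, 0.319, 0.365 and 0.465 for H2-Ab1 to Cd74, and 0.0243, 0.0247, 0.0300 and 0.0256 for H2-DMa to Cd74, and H2-Eb2 to H2-Eb1 in SWR to 0.0875. Of the 5 genes most like Cd74, 3 were shared with Spearman's rho and 3 with log2 CPM. With pseudocounts of 1 and 0 the ratios moved by less than 1 SD in 80 of 80 values. The marker term cannot separate cell content from strain in pairs with 129 or SWR, whose marker levels overlapped with no other strain. Causes were not tested. Low counts limit H2-Ob, H2-Ea-ps and also H2-Eb2, which had 57 reads in all in 129 and no more than 11 in a library there.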
